A study of Homo sapiens with 2 samples.

Results

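Genes encoding 10 transcription factors of squamous epithelium were described in H2087 and H596, which are established human lung cancer cell lines. They were TP63, SOX2, TP73, SOX15, PITX1, ZNF750, TFAP2A, TFAP2C, KLF5 and GRHL3, taken by their symbols, and they are 10 of the 27685 genes in the deposited table. They account for 40 of its 63714 transcripts. Each cell line was grown untreated in serum-supplemented RPMI medium and gave 1 stranded mRNA library, and both are labelled as lung adenocarcinoma. No value therefore has a replicate behind it, and no test between the cell lines was possible. Differences below are between these 2 libraries, and their intervals (95%) cover counting error only.

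The epithelium that lines the skin, esophagus and oral cavity is stratified, and its basal cells depend on p63, the product of TP63. The gene has an upstream promoter, which gives proteins with a full amino-terminal transactivation domain (TAp63), and an internal promoter, which gives proteins that lack it (ΔNp63). Basal squamous cells mainly contain the short form. SOX2 binds many of the same enhancers as p63 in squamous carcinomas, whereas KLF5 acts mainly in the proliferating basal layer, ZNF750 and GRHL3 act in the differentiation of the upper layers, and the AP-2 factors TFAP2A and TFAP2C take part in epidermal gene expression. Lung adenocarcinomas by contrast usually express the lung factor NKX2-1.

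The libraries held 46961500 estimated counts for H2087 and 55387847 for H596. FPKM, fragments scaled for transcript length and sequencing depth, was used as the measure of level. The label was compared with lineage markers. NKX2-1 reached an FPKM of 110 in H2087 but 0.508 in H596, and NAPSA, an aspartic protease of alveolar cells that serves as an adenocarcinoma marker, had 21.9 and 0.0645. KRT7, a keratin of simple epithelium, was abundant in both (FPKM 791 and 608). FOXA1, a factor of lung and gland epithelium, was also present in both (32.2 and 44.5). Thus NKX2-1 and NAPSA were near 0 in the H596 library while KRT7 and FOXA1 were not, and the lines are called by their names here.

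TP63 differed most among the 10 genes, and its starts separate the long from the short form, so the sequences at these starts are given first. TP63 lies on the plus strand of chromosome 3, and its listed transcripts together cover chr3:189314535-189615068 of hg19. The 13 listed transcripts begin at 3 positions. One transcript begins at 189314535 (start 1), 5 begin at 189349216 (start 2, the TA start), and 7 begin at 189507449 (start 3, the ΔN start). The gap between starts 2 and 3, 158233 bases, is the widest, and transcripts before and after it were counted as long and short. In the GRCh37 reference the coding sequence behind start 2 opens at chr3:189349305-189349366 and the one behind start 3 at chr3:189507590-189507631. The coding bases of these first exons, with the start codon in capitals, are shown because they set the amino end of each form:
TP63 long form: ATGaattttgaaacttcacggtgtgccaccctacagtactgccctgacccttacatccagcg
TP63 short form: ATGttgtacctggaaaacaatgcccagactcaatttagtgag
The amino end of the single transcript from start 1 was not read here, and it was placed with the long form by position alone.

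The 200 bases before the TA and the ΔN start were also read from GRCh37. They lie at chr3:189349016-189349215 and chr3:189507249-189507448 on the plus strand. Capitals mark matches to CCNCNCCC, a KLF-type box, on either strand. The window of start 3 held 1 match and that of start 2 none, and 49.6% of the 35116 RefSeq promoters (GRCh38.p14) hold this box in a window of the same length, so the match is common:
TP63 start 2: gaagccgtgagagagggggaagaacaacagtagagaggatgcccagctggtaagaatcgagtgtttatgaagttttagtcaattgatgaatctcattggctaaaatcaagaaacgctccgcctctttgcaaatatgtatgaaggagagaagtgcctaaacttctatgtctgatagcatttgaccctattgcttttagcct
TP63 start 3: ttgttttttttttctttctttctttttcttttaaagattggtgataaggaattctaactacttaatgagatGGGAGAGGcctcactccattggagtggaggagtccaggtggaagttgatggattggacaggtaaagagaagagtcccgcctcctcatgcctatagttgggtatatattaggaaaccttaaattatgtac
The GC content of these windows was 42.0% and 38.5%, against a median of 59.0% over the RefSeq promoters. The AP-2 motif was searched for as GCCNNNGGC and the grainyhead motif as AACCGGTT. The SOX motif was searched for as CATTGT. The TATA box was searched for with the letters TATAAA, and all were read on both strands. None of these 4 motifs occurred in either window.

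TP63 (gene 8626) had an FPKM of 0.183 (interval, 0.137 to 0.244) from 46 counts in H2087 and 55.2 (interval, 54.3 to 56.1) from 14447 counts in H596. It was the most different of the 10 genes, 302-fold higher in H596 (interval, 226 to 413). Only 0.184% of the 13048 genes with a mean FPKM at or above 1 had a larger difference in this direction, measured as log2(FPKM + 1). In rank, TP63 moved from 14988 among all listed genes in H2087 to 1331 in H596.

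Nearly all TP63 signal in H596 came from the short form. The 7 short transcripts had a summed FPKM of 54.8, which was 99.3% of the TP63 value, and the 6 long ones had 0.370, or 0.671%. By counts, the short transcripts held 99.6% (Wilson interval, 99.5 to 99.7). The most abundant transcript was NM_001114980, the α variant of ΔNp63 with the full carboxyl end, at an FPKM of 36.9 (66.9% of the gene). NM_001114981, the β variant, had 15.0 (27.2%). The variant that ends earliest, NM_001114982 or ΔNp63γ, had only 0.487 (0.883%). The short transcripts NM_001329149 and NM_001329145 had FPKM values of 1.67 and 0.733. Of the long transcripts, only NM_001114979 (TAp63γ) had counts in H596, and they were 61.

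In H2087 the short form was not detectable. None of the 46 TP63 counts was assigned to a transcript from start 3, which allows a share of up to 6.52%, and the same held for start 2. All 46 were assigned to NM_001329964, the transcript from start 1, which had 0 counts in H596. For NM_001114980 alone, H596 was at least 2761-fold higher if the assignment of counts to transcripts is taken as given, with 3 counts per library as the limit of a count of 0. The transcripts share most of their exons, so how 46 counts were divided among 13 transcripts is an estimate. Its error is covered neither by the limit of 6.52% nor by the 2761-fold value, which would be lower if some of the 46 counts belonged to NM_001114980. MIR944, a microRNA gene within TP63, had 0 counts in both libraries.

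**Figure D1:**
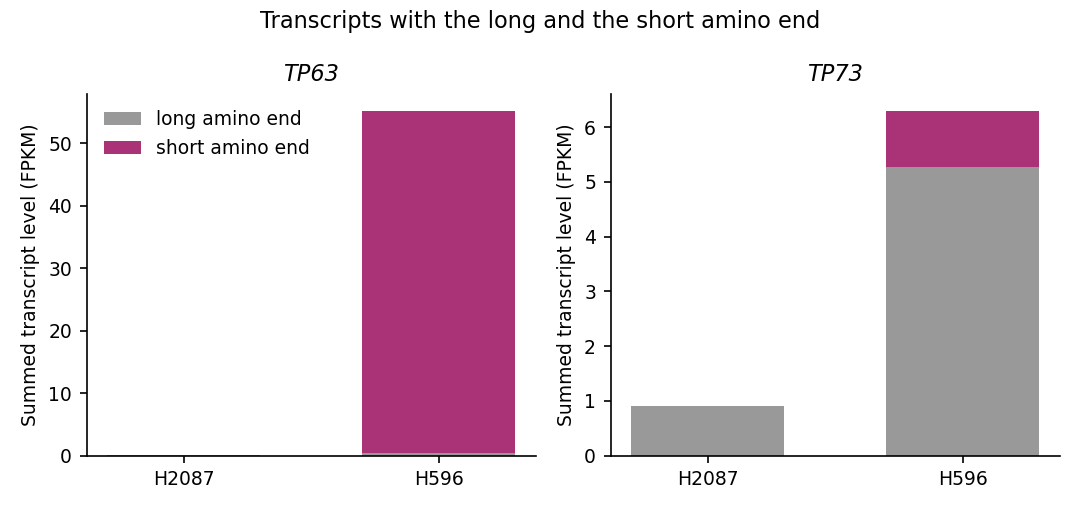
Summed transcript level (FPKM, linear axes that differ between panels) of TP63 and TP73 in the H2087 and H596 libraries, split into transcripts from the upstream (long amino end) and downstream (short amino end) starts. The TP63 bar of H596 is almost wholly short form (54.8 of 55.2), while that of TP73 is mainly long form (5.28 of 6.30). The H2087 bar of TP63 (0.183) is too low to see, and there are no error bars because each bar is 1 library.

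TP73 (gene 7161), which encodes p73, a relative of p63, was represented mainly by long transcripts in both libraries. It lies on chromosome 1 (chr1:3569129-3652765, plus strand) and also has TA transcripts from an upstream start and ΔN transcripts from internal ones. The gene had an FPKM of 0.913 (interval, 0.801 to 1.04) from 225 counts in H2087 and 6.30 (interval, 6.02 to 6.60) from 1824 counts in H596, a 6.90-fold difference (interval, 6.01 to 7.96). Transcripts from the upstream start made up 83.7% of its FPKM in H596 and those from the internal starts 16.3%. By counts the internal starts held 16.1% (interval, 14.5 to 17.8). In H2087 all 225 counts were assigned to 1 upstream transcript, NM_005427, and the internal starts had 0, which allows a share of up to 1.33%. The upstream transcripts taken alone were 5.78-fold higher in H596 (interval, 5.02 to 6.68). Thus in H596 the short form dominated TP63 but not TP73. The antisense gene TP73-AS1, which overlaps the 3' end of TP73, reached FPKM values of 6.40 (H2087) and 3.27 (H596), and it is not stated whether strand was used in counting, so reads of this overlap may belong to either gene.

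SOX2 (gene 6657), the HMG-box partner of p63, was high in both libraries. It is a gene without introns on chromosome 3 (chr3:181429712-181432223, plus strand). Its FPKM was 39.1 (interval, 38.0 to 40.3) in H2087 and 56.5 (interval, 55.2 to 57.7) in H596, from 4711 and 8047 counts. The 1.44-fold difference (interval, 1.39 to 1.496) was beyond counting error but below 2-fold, and 33.2% of the genes with a mean FPKM at or above 1 differed more in this direction. SOX2 was thus the highest of the 10 genes in H2087, where TP63 was the lowest by value. In H596 the intervals of SOX2 and TP63 overlapped. SOX2 and TP63 lie on the same chromosome arm, 7.88 Mb apart. SOX2-OT, the noncoding gene that contains SOX2, had only 41 and 36 counts.

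SOX15 (gene 6665), a SOX factor of the suprabasal and basal epidermis, resembled TP63 more than SOX2. Its FPKM was 0.239 (interval, 0.147 to 0.389) from 16 counts in H2087 and 30.8 (interval, 29.6 to 32.1) from 2439 counts in H596, 129-fold higher (interval, 79.2 to 226). After TP63 this was the widest difference of the 10 genes. SOX15 lies on the minus strand of chromosome 17 (chr17:7491498-7493488). Its listed span overlaps that of MPDU1, whose FPKM was 33.8 in H2087 and 46.1 in H596. MPDU1 was thus abundant in H2087, the library in which SOX15 had 16 counts.

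KLF5 (gene 688), a zinc finger factor of proliferating epithelium, had the highest level of the 10 genes in H596. Its FPKM was 15.8 (interval, 15.2 to 16.4) in H2087 and 113 (interval, 111 to 114) in H596, from 2663 and 22768 counts. The difference was 7.15-fold (interval, 6.87 to 7.44). In H596 it ranked 566 among all listed genes. The listed transcripts start at 2 positions on chromosome 13 (chr13:73629114-73651680, plus strand), 3816 bases apart. The downstream start, of NM_001730, held 92.2% of the KLF5 FPKM in H2087 and 98.4% in H596, and it was 7.63-fold higher in H596 (interval, 7.32 to 7.96). The upstream start, of NM_001286818, was only 1.44-fold higher (interval, 1.19 to 1.74), with FPKM values of 1.23 and 1.77.

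GRHL3 (gene 57822), a grainyhead factor required for the epidermal barrier, had an FPKM of 0.935 (interval, 0.786 to 1.11) from 127 counts in H2087 and 11.5 (interval, 11.0 to 12.0) from 1839 counts in H596. It was 12.3-fold higher in H596 (interval, 10.2 to 14.8). Its transcripts begin at 3 listed positions on chromosome 1 (chr1:24645812-24690970, plus strand). All 3 starts had counts in H596, with 60.7%, 18.6% and 20.7% of the FPKM from the most upstream to the most downstream. In H2087 the middle start had 0 of 127 counts, which allows a share of up to 2.36%, and the others had 70.6% and 29.4%. The middle start lies only 244 bases from the most upstream one, and that limit does not cover errors in assigning reads to transcripts. Its relatives differed less. GRHL2, which maintains epithelial adhesion genes, had 16.8 in H2087 and 37.3 in H596, and GRHL1 had 16.8 and 19.1. GRHL3 was therefore the grainyhead gene that set the libraries most apart, from a much lower level than GRHL1 and GRHL2.

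The AP-2 genes were both higher in H596. TFAP2C (gene 7022, chr20:55204358-55214338, plus strand) had an FPKM of 5.34 (interval, 4.96 to 5.74) from 733 counts in H2087 and 24.8 (interval, 24.0 to 25.5) from 4028 counts in H596, a 4.64-fold difference (interval, 4.29 to 5.03). TFAP2A (gene 7020, chr6:10396916-10419797, minus strand) had 4.12 (interval, 3.82 to 4.44) from 684 counts and 13.4 (interval, 12.9 to 13.9) from 2819 counts, a 3.26-fold difference (interval, 2.99 to 3.54). TFAP2B, TFAP2D and TFAP2E stayed below an FPKM of 1 in both libraries, so TFAP2C and TFAP2A were the highest AP-2 genes. TFAP2E still had FPKM values of 0.849 from 89 counts in H2087 and 0.920 from 115 counts in H596.

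The starts of TFAP2A did not move together. The listed transcripts begin, from 5' to 3' on the minus strand, at 10419797 (NM_001042425), 10415470 (NM_003220) and 10412607 (NM_001032280). NM_003220 was the main transcript in H2087, with an FPKM of 2.82 (68.4% of the gene), and it was lower in H596, at 1.54 (11.5%). NM_001032280 had 1.301 (31.6%) in H2087 and 10.9 (81.2%) in H596, 8.37-fold higher (interval, 7.32 to 9.60). NM_001042425 had 0 counts in H2087 and an FPKM of 0.980 from 176 counts in H596. By these estimates the main start of TFAP2A differed between the libraries, and the gene's difference came from the most downstream start. Like the start shares of TP73, KLF5 and GRHL3, they rest on how reads were divided among transcripts. The intervals do not cover the error of that division. TFAP2A-AS1, on the opposite strand over part of this region, had 5 counts in H2087 and 488 in H596. Its part in the TFAP2A result was not tested.

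RefSeq promoters (GRCh38.p14) were found for 2 of these TFAP2A starts, and their last 200 bases before the start are shown because the estimated use of these starts differed. The first, 95 bases upstream of the listed start of NM_001042425 by exact match to GRCh37, is at chr6:10419660-10419859 of GRCh38.p14. It had a GC content of 59.0% and holds TATAAA, found in 8.59% of RefSeq promoter windows. The second, 17 bases upstream of the listed start of NM_001032280, is at chr6:10412392-10412591 of GRCh38.p14. It had a GC content of 71.5%, no TATAAA, and 11 matches to CCNCNCCC, many of them overlapping. Both are on the minus strand and are written 5' to 3', with matches to the searched letters in capitals:
TFAP2A upstream start: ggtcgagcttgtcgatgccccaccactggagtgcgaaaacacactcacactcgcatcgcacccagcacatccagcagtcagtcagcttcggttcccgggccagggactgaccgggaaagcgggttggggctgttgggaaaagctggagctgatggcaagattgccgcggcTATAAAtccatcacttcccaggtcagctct
TFAP2A downstream start: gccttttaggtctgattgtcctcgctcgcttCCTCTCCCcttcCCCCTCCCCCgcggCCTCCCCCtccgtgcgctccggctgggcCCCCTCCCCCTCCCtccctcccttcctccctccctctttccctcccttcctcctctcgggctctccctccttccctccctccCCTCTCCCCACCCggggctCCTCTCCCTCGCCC
Promoters of 7 of the 10 genes were in this RefSeq table, 12 in all. CCNCNCCC was in 8 of the 12 windows, GCCNNNGGC in 3 (of all windows, 17.0%), CATTGT in 1 (7.54%), TATAAA in 2 and AACCGGTT in 0 (0.0854%). These are matches of letters and not binding sites.

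**Figure D2:**
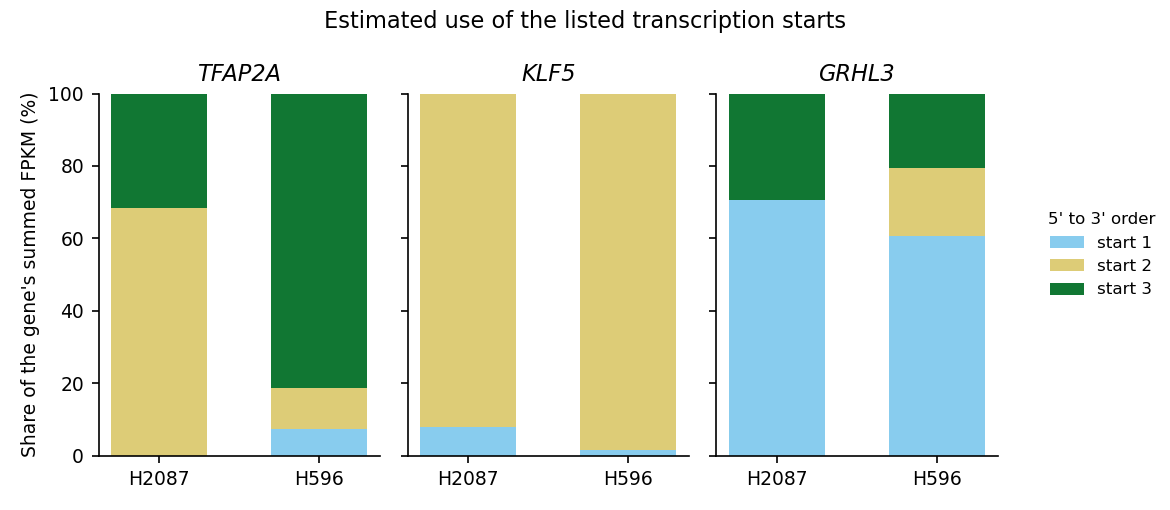
Share (%) of a gene's summed transcript FPKM held by each listed transcription start of TFAP2A, KLF5 and GRHL3 in the H2087 and H596 libraries, with starts numbered from 5' to 3'. In TFAP2A the main start was start 2 in H2087 (68.4%) and start 3 in H596 (81.2%), whereas KLF5 and GRHL3 had the same main start in both; the shares are estimates from 1 library each.

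PITX1 (gene 5307), a paired-like homeodomain factor of oral and hindlimb development, had an FPKM of 15.9 (interval, 15.2 to 16.7) from 1821 counts in H2087 and 37.5 (interval, 36.4 to 38.5) from 5066 counts in H596. It was 2.35-fold higher in H596 (interval, 2.23 to 2.48). The gene lies on chromosome 5 (chr5:134363424-134369964, minus strand).

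ZNF750 (gene 79755), a zinc finger factor of late epidermal differentiation that acts downstream of p63, was barely expressed in either cell line. Its FPKM was 0.234 (interval, 0.169 to 0.324) from 36 counts in H2087 and 0.605 (interval, 0.502 to 0.729) from 110 counts in H596. The ratio was 2.59 (interval, 1.76 to 3.88), on levels below an FPKM of 1. ZNF750 lies on the minus strand within the listed span of TBCD on chromosome 17 (chr17:80787310-80797931), and TBCD reached 12.3 in H2087 and 24.9 in H596. Since strand use in counting is not stated, counts this low may include reads of TBCD, which was not tested. ZNF750 was therefore the one gene of the 10 that stayed low where TP63 was high.

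Together, all 10 genes were higher in H596 by value. On the log2(FPKM + 1) scale, on which changes of low genes are understated, 8 of the 10 were at least 2-fold higher, 0 were at least 2-fold lower, and SOX2 (0.52) and ZNF750 (0.38) lay between. The median of the 10 differences was 1.98. Of the 27685 listed genes, 9.19% were at least 2-fold higher by the same measure and 7.45% lower, with a median of 0.00. Of the 13048 genes with a mean FPKM at or above 1, which include 9 of the 10, these shares were 18.2% and 14.2%, with a median of 0.12. After scaling by the TMM method, which moved that median to 0.00, TP63 was 275-fold, SOX15 117-fold and SOX2 1.32-fold higher, and the direction was kept in all 10.

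**Figure D3:**
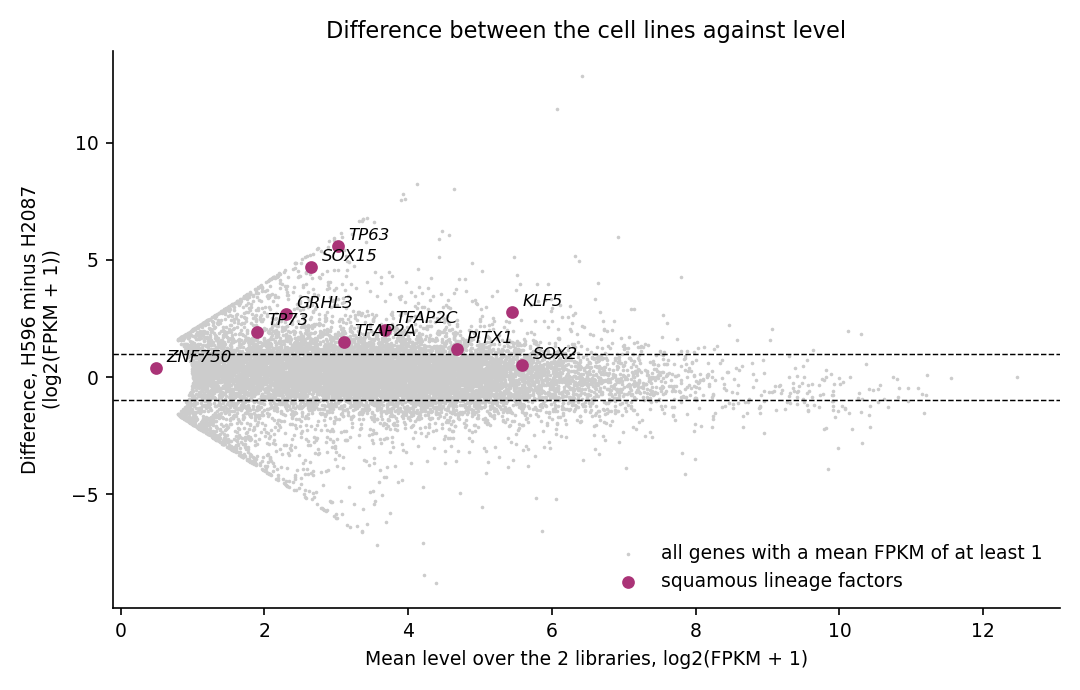
Difference between the libraries (H596 minus H2087, log2(FPKM + 1)) against the mean level, with each gene of a mean FPKM at or above 1 in grey and the 10 squamous lineage factors in colour, and dashed lines at 2-fold. TP63 (5.57) and SOX15 (4.68) lie near the upper edge of the cloud, and SOX2 (0.52) and ZNF750 (0.38) between the dashed lines.

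The order of levels also differed between the libraries. In H2087 it was SOX2, PITX1, KLF5, TFAP2C, TFAP2A, GRHL3, TP73, SOX15, ZNF750 and TP63. PITX1 could not be told from KLF5, GRHL3 from TP73, SOX15 from ZNF750 or ZNF750 from TP63 within counting error. In H596 the order was KLF5, SOX2, TP63, PITX1, SOX15, TFAP2C, TFAP2A, GRHL3, TP73 and ZNF750, and only SOX2 and TP63 had overlapping intervals. The summed FPKM of the 10 genes was 82.8 in H2087 and 349 in H596.

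**Figure D4:**
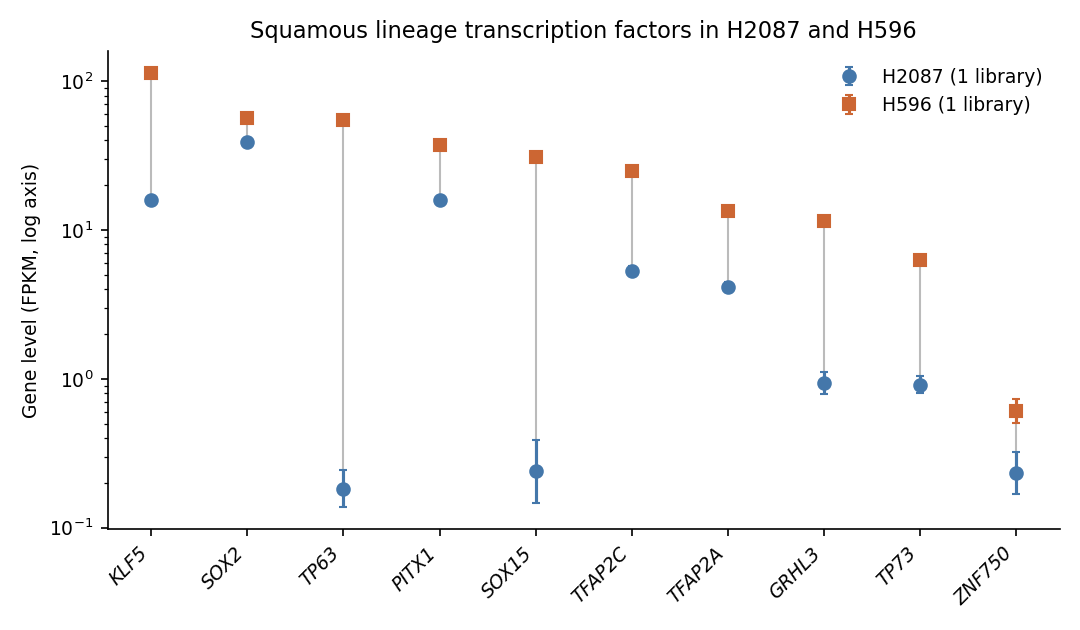
Level (FPKM, log axis) of each of the 10 genes in the H2087 library (circles) and the H596 library (squares), ordered by the H596 level, with 95% counting intervals that are narrower than the symbols for most genes. All 10 squares lie above their circles, by 302-fold in TP63 and 1.44-fold in SOX2.

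Genes known to be bound or regulated by p63 in basal epithelium were examined next, from a list of 21 genes. On the log2(FPKM + 1) scale, 17 of them were at least 2-fold higher in H596, 1 was lower and 3 lay between, with a median of 2.14. Among all listed genes 9.19% were higher and 7.45% lower by this measure, and among those with a mean FPKM at or above 1, 18.2% and 14.2%, and the counts of the lists that follow are read against these shares. The highest in H596 were SFN, which encodes 14-3-3σ (121 in H2087 and 373 in H596), and KRT15, a basal keratin (29.8 and 306). COL17A1, the hemidesmosomal collagen, was among those near 0 in H2087, at 0.160 against 113. KRT5, the basal keratin, had 0 counts in H2087 and an FPKM of 106 in H596, at least 3902.5-fold higher, but its partner KRT14 reached only 1.33. LAMA3 and LAMB3, genes of basement membrane laminin, were higher in H596 (14.5 and 46.5, and 16.9 and 152). CDH3, which encodes P-cadherin, was level (102 and 99.6), and the desmosomal genes differed among themselves. DSG3 had 0 counts in H2087 and an FPKM of 33.9 from 10678 counts in H596, whereas PKP1 and DSC3 stayed below 1 in both.

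Of 15 genes of squamous differentiation, 7 were at least 2-fold higher in H596, 0 were lower and 8 lay between, with a median of 0.92. KRT13, a keratin of mucosal suprabasal cells, had FPKM values of 0.281 in H2087 and 3558 in H596. KRT4, its usual partner, was high in both (455 and 860). IVL and TGM1, which build the cornified envelope, had 1.83 and 18.1, and 0.895 and 18.7. Several genes of cornified skin stayed low. LOR and TGM3 had 0 counts in both libraries, and KRT1, FLG and CRNN were below 1 in both. KRT10 had 8.37 and 12.7.

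The 14 other factors of squamous epithelium were counted in the same way. Of these, 6 were at least 2-fold higher in H596, 0 were lower and 8 lay between, with a median of 0.77. EHF, an epithelial ETS factor, had FPKM values of 6.93 in H2087 and 62.1 in H596. ELF3, of the same class, was the highest in both (197 and 330), and NFE2L2, the NRF2 gene, had 42.3 and 62.6. Of 12 genes for cofactors of p63 and ZNF750 and for p63 turnover, only PPP1R13L (7.56 and 33.8), which encodes the inhibitor iASPP, was at least 2-fold higher. CTBP2, a corepressor that binds ZNF750, was lower (60.0 and 21.8), and the other 10 lay between, HDAC1 (93.9 and 74.0) and KDM1A (67.0 and 46.3) being the highest. The median of the 12 differences was 0.07.

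Markers of other lineages were listed for comparison. Of 11 lung and gland genes, 4 were at least 2-fold lower in H596 (NKX2-1, FOXA2, NAPSA and SFTA3), 2 were higher (CEBPA and GATA6) and 5 lay between. FOXA2, a foregut factor, was at 30.5 in H2087 and at 0.116 in H596, unlike its relative FOXA1. The neuroendocrine markers NEUROD1, INSM1 and CHGA had 0 counts in both libraries, and SYP, which encodes synaptophysin, had 14 counts in H2087 and 114 in H596 (FPKM 0.120 and 0.823). The 6 stromal markers summed to FPKM values of 3.97 in H2087 and 10.7 in H596, of which DCN alone gave 9.77 in H596 and COL1A1 3.89 in H2087. Of 5 blood and endothelial markers, PTPRC and CD3E had 0 counts in both, and CD68, a lysosomal gene, had 128 and 25.6. The part of these markers in the differences of the 10 factors was not tested.

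**Figure D5:**
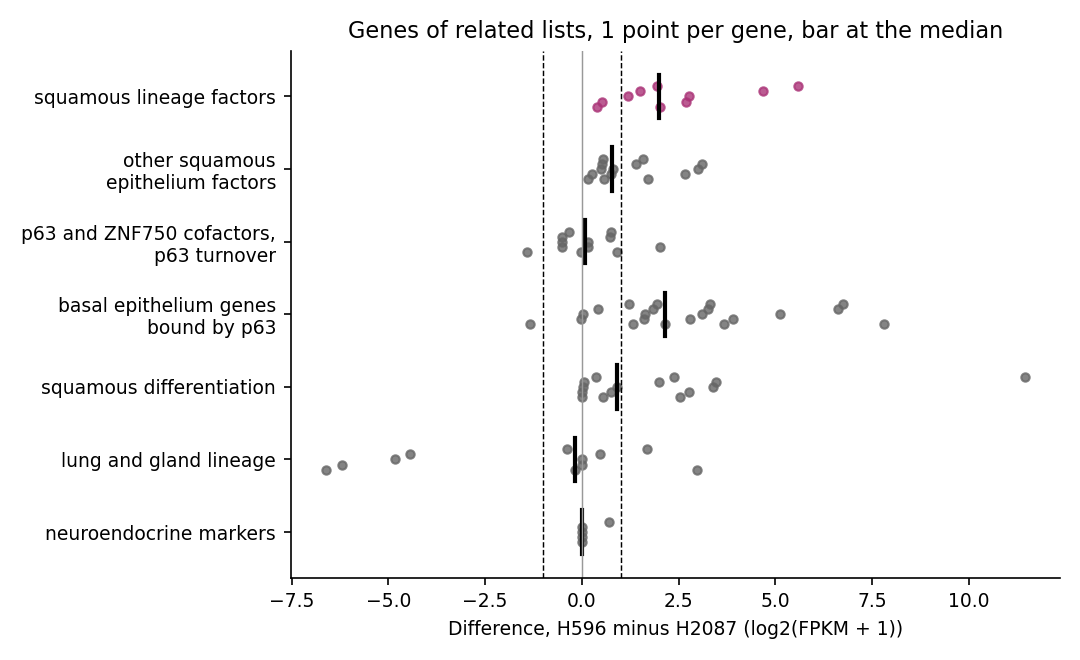
Difference between the libraries (H596 minus H2087, log2(FPKM + 1)) of each gene in 7 lists, with a bar at each median and dashed lines at 2-fold. The squamous lineage factors (median 1.98) and the basal genes bound by p63 (median 2.14) lie mostly to the right of the upper line, and the cofactors of p63 and ZNF750 (median 0.07) mostly between the lines.

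The SOX and KLF families are large, and their members differed in direction. Of 20 SOX genes, 4 were at least 2-fold higher in H596 (SOX7, SOX13, SOX15 and SOX18), against 9.19% of all listed genes, and 2 were lower, SOX9 (7.78 in H2087 and 0.408 in H596), a factor of distal lung progenitors, and SOX21 (12.2 and 4.48). SOX4 had 26.3 and 17.1. Of 17 KLF genes, KLF5 was the only one at least 2-fold higher, and KLF7 was lower (3.08 and 0.692). KLF3 had 17.8 and 30.2, KLF4 10.9 and 12.3, and KLF16, the highest of the family in H2087, 18.5 and 12.0. SOX2 exceeded the other SOX genes and KLF5 the other KLF genes in the H596 library.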

How the data were processed

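RNA-seq data of untreated H2087 and H596 cells, 1 library each, were used. From stranded mRNA libraries, the authors mapped reads to hg19 using HISAT2 (2.0.5) and estimated abundances with StringTie (1.3.3b), per the methods and the submitters' processing notes. Per gene and transcript, the authors deposited estimated counts as whole numbers, whose derivation is not given in the sources used here, and FPKM, which is scaled by length and library size.

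Levels were compared as log2(FPKM + 1), H596 minus H2087, and a difference of at least 1 (2-fold) was counted as higher. The share of all counts held by a gene was given a Wilson interval (95%), which was carried over to FPKM. Fold intervals are exact (Clopper-Pearson) intervals of the count ratio, and 3 counts per library were the limit for a count of 0. TMM factors came from edgeR (4.0.16, R 4.3.3), and FPKM was divided by them. The intervals and calls were checked on counts simulated with counting error only, for well expressed genes and 4-fold changes. That check does not cover genes with few counts or errors in assigning reads to transcripts. Other software was Python 3.11.15, numpy 2.4.6, pandas 2.3.3 and scipy 1.17.1. Strand and coding starts are from GENCODE release 44 mapped to GRCh37, the files' build, and promoters are from RefSeq. The genes and lists were chosen with earlier results of these data known. Named genes are the 10 factors, the 2 highest genes of each list in each library and family members. KRT5, KRT14, COL17A1, EHF, LAMA3, LAMB3, CDH3, PKP1, DSC3, DSG3, IVL, TGM1, LOR, TGM3, KRT1, FLG, CRNN, PPP1R13L, CTBP2, FOXA2, NAPSA, SFTA3, CEBPA and GATA6 and the marker genes outside the 2 highest were named after their values were seen, and some genes of the lists and 1 sequence are not reported here. Alternatives were another pseudocount, TPM, TMM scaling, centring, transcript sums, the highest transcript, a filter and a 4-fold threshold.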

Additional observations from a re-analysis of the deposited data

How the results depend on the processing

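Each of the 10 genes was recomputed under 6 alternatives (a pseudocount of 0.1, TPM, TMM scaling, centring on the median of all genes, the sum of transcripts and the highest single transcript). In all 60 cases it stayed higher in H596, but many of these cases could not have reversed. A pseudocount cannot change a direction, TPM scaled H596 up relative to H2087, and the transcript sums equalled the gene values. The highest transcript is the gene itself where a single transcript is listed. Only TMM scaling, centring and the highest transcript of the other genes could have reversed a direction. At least 4-fold in place of 2-fold, 5 of the 10 genes were higher in place of 8, and 11 of the 21 basal genes bound by p63 in place of 17, because the threshold is stricter. With a pseudocount of 0.1, 9 of the 10 genes and 18 of the 21 basal genes were at least 2-fold higher. The count of squamous differentiation genes rose from 7 to 9 with that pseudocount and also with TPM, and was 6 at 4-fold. The short form held 99.6% of the TP63 counts in H596, against 99.3% of the FPKM. With each start taken as its own group, an alternative chosen after seeing the data, every start after the first counts as short and the share was 100%. This grouping counts the TA start (start 2) as short, so the 100% is not a share of the ΔN form. No paired analysis was possible because there was 1 library for either line, and leaving out a library was not possible either. Depth limits the TP63, SOX15 and ZNF750 values of H2087, which rest on 46, 16 and 36 counts.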

Other observations

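By the distance of log2(FPKM + 1) over the 2 libraries, the genes nearest to TP63 were CASP1, an inflammatory caspase (0.306 in H2087 and 55.5 in H596), FGFR3, a receptor of fibroblast growth factors (0.0874 and 49.6), and GGT6, a gamma-glutamyltransferase relative (0.0311 from 4 counts, and 58.9). Those nearest to SOX2 were UBXN6 (39.5 and 55.2), TMEM183B (39.4 and 57.9), a near-copy of another gene whose reads are therefore uncertain, and SRSF11, a splicing factor (40.1 and 55.7). With 2 libraries, this likeness is of level only.

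For each factor, the 10 nearest genes on its chromosome were read among those whose mean FPKM was 1 or more. Around TFAP2C on chromosome 20, 8 of the 10 neighbours were at least 2-fold higher in H596 and 0 lower (18.2% and 14.2% over all genes at this level), with a median difference of 1.16 against 2.02 for TFAP2C. Around TP63 and around TFAP2A, 6 of the 10 were higher and 1 lower, with medians of 1.16 and 1.302 against 5.57 and 1.49. The median around SOX2 was 0.50, close to its own 0.52. KLF5 went against its neighbours on chromosome 13, of which 4 were at least 2-fold lower and 0 higher, with a median of -0.64 against 2.76. PITX1 also differed from the median of its neighbours (-0.66 against 1.18), but only 1 of these was at least 2-fold lower and 0 were higher. Around ZNF750, 4 were higher and 1 lower, with a median of 0.85 against 0.38. Around SOX15, TP73 and GRHL3 the medians were -0.03, 0.15 and 0.20.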
